A study of Mus musculus with 10 samples.

Results

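The immune TRIM ubiquitin ligases were examined in retinas of light-stressed mice as 8 named genes, Trim14, Trim21, Trim25, Trim26, Trim30a, Trim30d, Trim34a and Trim56. They were chosen by name for their known part in antiviral and inflammatory signalling, with earlier results of these data already known. Each was followed on the transcript cluster that carries its symbol. Of the 8 genes, 7 had a row, with 1 transcript cluster each, among the 19505 genes tested, and Trim34a was not analysed here. The array also measured 54 other TRIM genes, which served for comparison.

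Total RNA of whole retinas was measured on 10 arrays in 5 groups of 2 animals. The first 3 groups carried the Cln3Δex7/8 allele, a knock-in model of juvenile neuronal ceroid lipofuscinosis, a lysosomal storage disease of the nervous system. They were light-exposed mice injected with minocycline, light-exposed mice injected with NaCl solution as vehicle, and mice without light. The other groups were wild-type mice exposed to high light and wild-type mice without light. According to the methods the mutants were kept on a C57BL/6J background with the light-sensitive leucine variant of Rpe65 and the wild types were littermates, whereas the labels name Balb/c as the strain of the wild types. Males and females aged 8 to 10 weeks were used, and exposure followed 16 h in the dark. The protocol gives 15000 lux for 60 min as high light. For the minocycline study it gives low light, 10000 lux for 30 min, although the labels of the CLN3-deficient arrays themselves state no dose. Minocycline, a tetracycline that dampens microglial reactivity, was given intraperitoneally at 45 mg/kg a day. Injections are labelled in the exposed mutants alone, so that injection and light cannot be told apart in this genotype, and no source used here states the day of RNA sampling.

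TRIM proteins are built from a RING domain, B-boxes and a coiled coil, and the RING domain makes most of them E3 ligases that pass ubiquitin from a conjugating enzyme to a substrate. Many TRIM genes are switched on by interferon through interferon-stimulated response elements in their promoters, and several of their proteins in turn raise or restrain the RNA and DNA sensing pathways that lead to interferon. In the retina, microglia are the resident immune cells and respond early to light damage. Values are the deposited log2 expression values, on which 1 unit is a doubling, and a gene was called at a Benjamini-Hochberg adjusted p under 0.05 from limma over all genes. Levels of different genes are not compared, because each has its own probes.

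The stretches before the transcription start are shown here because Trim30a and Trim30d, neighbours with log2 changes of different size, share almost the same one, and because Trim26 fell with an interferon motif and Trim25 rose with none. Sequences are from RefSeq on GRCm38.p6, written 5′ to 3′ on the strand of the gene, with position +1 as the first transcribed base and no position 0. The table of promoters held 7 of the 8 genes. Capitals mark the core of the interferon-stimulated response element, GAAANNGAAA, searched on both strands in the 250 bases before and 50 bases after each start. Trim30a lies on the minus strand and its stretch is chr7:104465194-104465443. Trim30d lies on the same strand with chr7:104507850-104508099. Trim26 lies on the plus strand with chr17:36836896-36837145, Trim25 on the plus strand with chr11:88999153-88999402, and for Trim21, on the minus strand, the 30 bases at chr7:102565447-102565476 around its matches after the start are given.
Trim30a: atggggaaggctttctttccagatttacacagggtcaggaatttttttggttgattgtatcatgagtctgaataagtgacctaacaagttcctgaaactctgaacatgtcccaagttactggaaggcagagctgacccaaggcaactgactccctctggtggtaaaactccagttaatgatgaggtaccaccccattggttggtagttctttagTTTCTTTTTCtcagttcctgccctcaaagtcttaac
Trim30d: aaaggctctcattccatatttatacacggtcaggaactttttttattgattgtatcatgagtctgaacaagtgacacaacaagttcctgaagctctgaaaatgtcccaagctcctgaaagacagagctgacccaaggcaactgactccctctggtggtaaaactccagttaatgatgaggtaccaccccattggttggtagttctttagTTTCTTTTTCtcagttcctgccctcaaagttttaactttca
Trim26: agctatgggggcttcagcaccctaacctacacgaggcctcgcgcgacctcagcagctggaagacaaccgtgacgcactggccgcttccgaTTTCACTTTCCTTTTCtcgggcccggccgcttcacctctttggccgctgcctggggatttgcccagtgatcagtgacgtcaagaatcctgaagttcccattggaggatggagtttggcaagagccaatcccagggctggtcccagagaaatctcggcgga
Trim25: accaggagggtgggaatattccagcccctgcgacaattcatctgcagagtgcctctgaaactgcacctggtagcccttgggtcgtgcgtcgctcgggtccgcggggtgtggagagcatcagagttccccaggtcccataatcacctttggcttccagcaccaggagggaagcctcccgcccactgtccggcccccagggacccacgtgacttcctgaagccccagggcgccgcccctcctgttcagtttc
Trim21: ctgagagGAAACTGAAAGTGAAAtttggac

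The core occurred in 3.44% of the 32851 mouse promoters of the same length. By gene, it occurred in 3.99% of 27025 genes and in 5 of the 7 TRIM genes with a listed promoter, of which Trim30a had 2. In Trim30a it stood at positions -36 to -27, on the reverse strand, and in Trim30d at -41 to -32, also reversed. The promoter windows of both genes were 90.8% identical over an alignment of 305 positions. A second listed start of Trim30a held the same core at +3 to +12. In Trim26, 2 reversed matches at -160 to -151 and -154 to -145 overlapped, and in Trim21, 2 forward matches at +14 to +23 and +20 to +29 overlapped. Trim34a, the gene with no row, held 1 at +11 to +20. No match was found in the windows of Trim25 and Trim56. The gamma-activated site TTCNNNGAA, found in 8.3% of promoters, was found for none of the 7. A match describes the letters only.

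Trim30a and Trim30d belong to a run of TRIM genes on chromosome 7. In the order of the RefSeq annotation this run holds Trim6, Trim34a, Trim5, Trim12a, Trim34b, Trim12c, Trim30b, Trim30c, Trim30a and Trim30d, with pseudogenes and short RNA genes between them. Trim21 lies elsewhere on chromosome 7. Trim26 lies on chromosome 17, beside a series of H2-M genes of the major histocompatibility complex, with Trim39 at the other end of that series.

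The arrays were alike in overall scale, with medians between 7.14 and 7.25, and replicate arrays had a Pearson's r of 0.989 to 0.994 across genes. Cln3 itself was measured at 9.14 to 10.18 on the 6 CLN3-deficient arrays and at 10.25 to 10.72 on the 4 wild-type arrays, which did not overlap. Which exons its probes cover was not examined. Rod markers averaged 16.21 to 17.44 on every array, as in retina. Other tissue was uneven: skeletal muscle markers averaged 9.42 on array 1 of the unexposed CLN3-deficient mice and at most 6.62 elsewhere, and retinal pigment epithelium markers averaged 11.64 on array 2 of the minocycline group and 7.65 to 10.10 elsewhere. Y-linked genes were high, with means of 10.75 to 11.52, on array 1 of the minocycline group, both NaCl arrays and both unexposed wild-type arrays, and at most 3.69 on the other 5. Light and the Y-linked genes therefore cannot be told apart in the light comparison of either genotype, where they ran in opposite directions. Lens markers averaged 7.01 and 7.50 on the unexposed wild-type arrays, 8.05 on minocycline array 1 and 7.32 on NaCl array 1, against 5.32 to 6.02 elsewhere.

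With light, 4 of the 7 TRIM genes were higher in vehicle-injected CLN3-deficient retinas and 1 was lower, compared with unexposed CLN3-deficient retinas. Trim30a, Trim25, Trim21 and Trim30d rose, and Trim26 fell. Over all genes 6.57% were called higher and 11% lower. The 7 TRIM genes had a median log2 fold change of 1.33, against 0.00 for all genes. Because these genes were chosen with earlier results of these data known, the shares describe them and are no independent support. In 5 of the 7 both light-exposed arrays lay above both unexposed arrays, which was so for 30% of all genes. The larger changes of Trim30a and Trim25 also passed the cut-off of the study's methods, a log2 fold change of 2 or more in size at an unadjusted p under 0.05, as 1.06% of all genes did.

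Trim30a, which in mice restrains Toll-like receptor signalling by driving the breakdown of TAB2 and TAB3, changed most among the 7. It measured 7.67 and 8.08 on the NaCl arrays, against 4.32 and 4.19 on the unexposed CLN3-deficient arrays. Its mean was 7.88 ± 0.29 with light and NaCl and 4.26 ± 0.09 without light (SD, n = 2 each). The log2 fold change was 3.62 (SE 0.48, 95% CI 2.57 to 4.67), a 12.3-fold higher level with an adjusted p of 0.00170 in limma, which ranked 99 among all genes by p. Leaving out any of the 4 arrays kept the call, with adjusted p between 0.0159 and 0.0205.

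Trim25, which in human and mouse cells adds ubiquitin chains in the activation of the RNA sensor RIG-I, measured 9.96 and 10.61 with light and NaCl and 8.14 and 8.32 without light. Its log2 fold change was 2.06 (SE 0.39, 95% CI 1.21 to 2.90, limma adjusted p = 0.00558), or 4.16-fold. The groups did not overlap. Without array 1 of the unexposed mice the adjusted p was 0.051, and without NaCl array 2 it was 0.0543.

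Trim21 is a cytosolic receptor for the constant part of antibodies that directs bound particles to the proteasome. Within the 2 groups compared here it was as tight as any of the 7, but its SD was 0.877 in the minocycline group. It measured 6.73 and 6.82 with light and NaCl and 4.88 and 4.82 without light. The log2 fold change was 1.93 (SE 0.37, 95% CI 1.11 to 2.74, limma adjusted p = 0.00635), or 3.80-fold. The call was kept without any 1 of the 4 arrays, at adjusted p between 0.0436 and 0.0487.

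Trim30d, the neighbour and close relative of Trim30a, measured 6.32 and 6.07 with light and NaCl and 4.51 and 5.23 without light. Its log2 fold change was 1.33 (SE 0.42, 95% CI 0.41 to 2.24), and the limma adjusted p of 0.0492 lay just under the threshold. Each array left out in turn took it over the threshold, with adjusted p between 0.0709 and 0.298, and quantile normalization gave 0.0997. How far the probes of Trim30a and Trim30d read each other's transcripts was not tested.

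Trim26 was the only one of the 7 that fell. The protein has been described as a brake on IRF3, the factor that switches on the interferon beta gene. It measured 6.54 and 6.45 with light and NaCl and 7.78 and 7.03 without light, a log2 fold change of -0.91 (SE 0.25, 95% CI -1.46 to -0.36, limma adjusted p = 0.0296). The higher unexposed array, array 1, was the one with high skeletal muscle markers. Without it the log2 fold change was -0.54 with an adjusted p of 0.262, and without NaCl array 1 or 2 the adjusted p was 0.112 or 0.137.

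Trim14 and Trim56 did not pass. Trim14, which lacks a RING domain and in human cells acts as an adaptor at the mitochondrial antiviral protein MAVS, measured 4.67 and 5.17 with light and NaCl and 4.28 and 4.22 without light (log2 fold change 0.67, SE 0.30, limma adjusted p = 0.145). Its arrays did not overlap. Trim56, described in human cells as a ligase for the DNA sensing adaptor STING, measured 8.14 and 8.29 with light and NaCl and 7.72 and 8.15 without light. One unexposed array lay between the 2 exposed ones, and the log2 fold change of 0.28 had a 95% CI from -0.46 to 1.02.

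Low signal limits several of these values. The lower quartile of all genes lay between 4.81 and 5.20 on the 10 arrays. Trim14 was below it on 9 arrays, Trim30a on 6, Trim21 on 5 and Trim30d on 3, while Trim25, Trim26 and Trim56 were never below it. The low arrays of Trim30a and Trim21 therefore lie in the range of the dimmest genes, where a fold change can be understated.

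**Figure D1:**
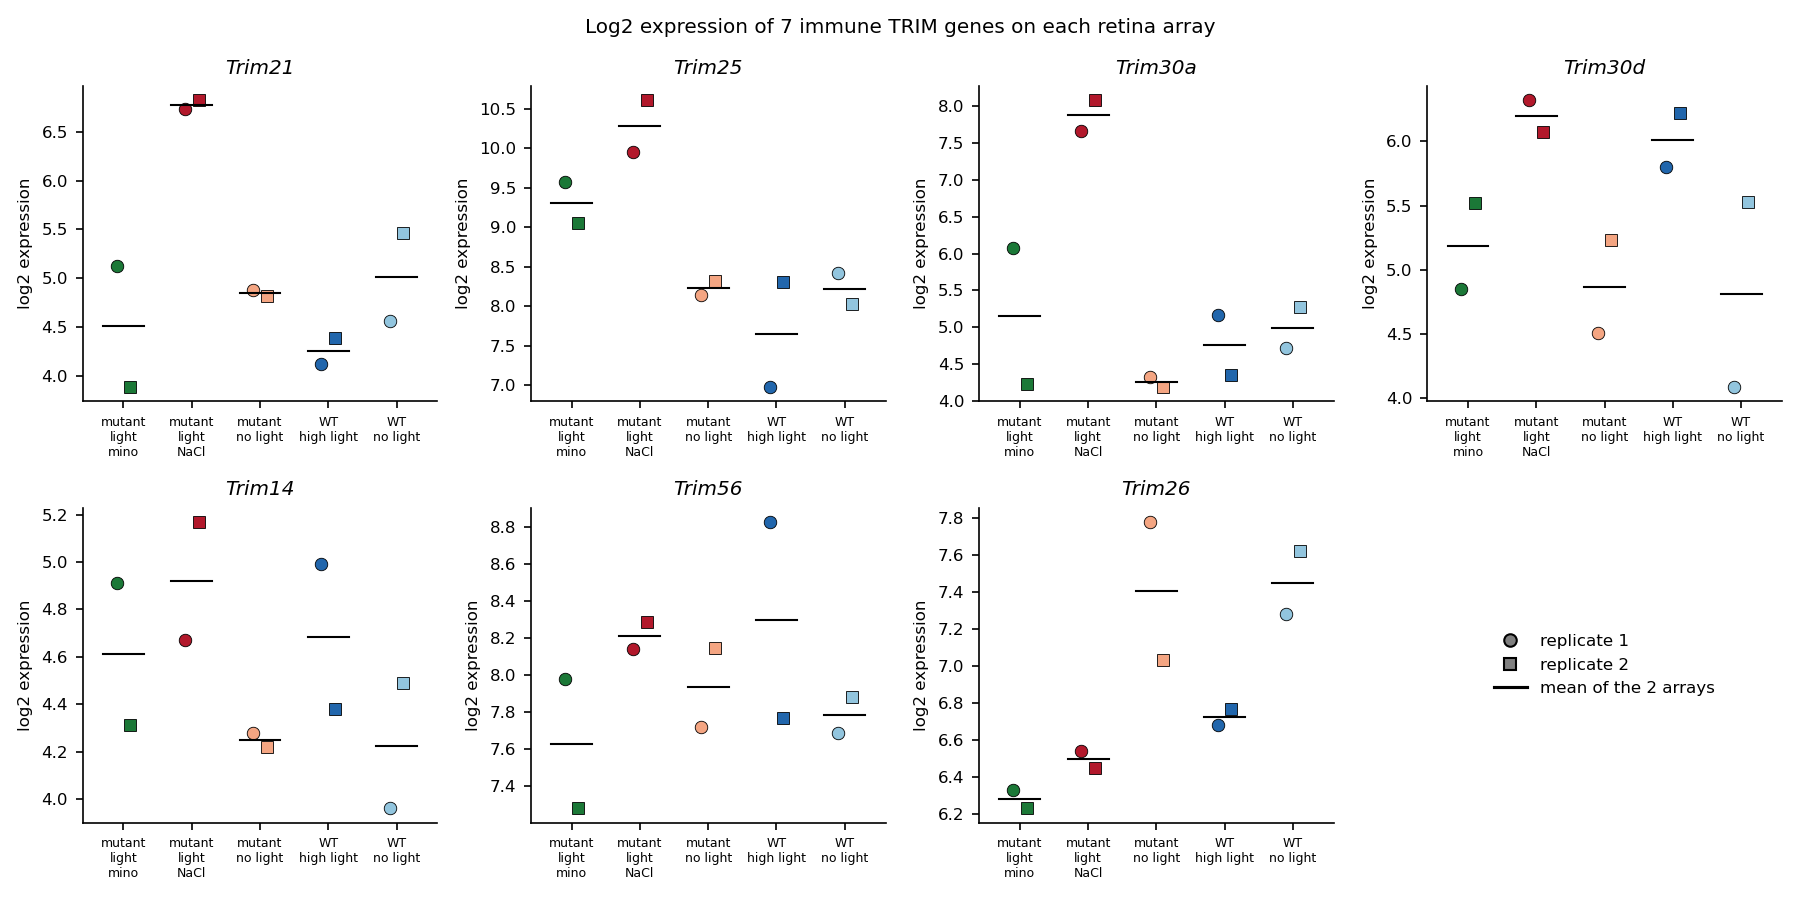
Log2 expression (vertical axes, each panel with its own range) of the 7 immune TRIM genes on each of the 10 arrays, by group along the horizontal axis. Circles are replicate 1, squares replicate 2 and lines the mean of 2 arrays; Trim21 and Trim30a stand above every other array only in the vehicle-injected light-exposed CLN3-deficient retinas, and Trim26 is lowest in the light-exposed groups.

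Markers of microglia moved in the same direction in this comparison. The 16 microglial markers measured of 18 listed averaged 8.35 and 8.17 on the NaCl arrays and 6.54 and 6.44 on the unexposed CLN3-deficient arrays, and 8 of the 16 were called higher with a median log2 fold change of 1.57. In whole retina, more cells of a type and more RNA per cell cannot be told apart. Markers of infiltrating leukocytes averaged 5.07 and 5.21 with light and NaCl and 4.87 and 4.72 without light, with 1 of 13 called. The part of either list in the TRIM values was not tested. With the mean of the 3 measured Y-linked genes as a covariate, no TRIM gene was called, nor any gene at all. Only the minocycline arrays differed widely in these genes within a group (11.52 and 3.69), and they also differed in pigment epithelium markers, so this fit rests on 2 arrays. Trim30a then had a log2 fold change of 1.74 (adjusted p = 0.141) and Trim21 of 0.68 (adjusted p = 0.528). The 2 unexposed wild-type arrays, on which the Y-linked genes were as high as on the NaCl arrays, had Trim30a at 4.72 and 5.27 and Trim21 at 4.56 and 5.46.

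**Figure D2:**
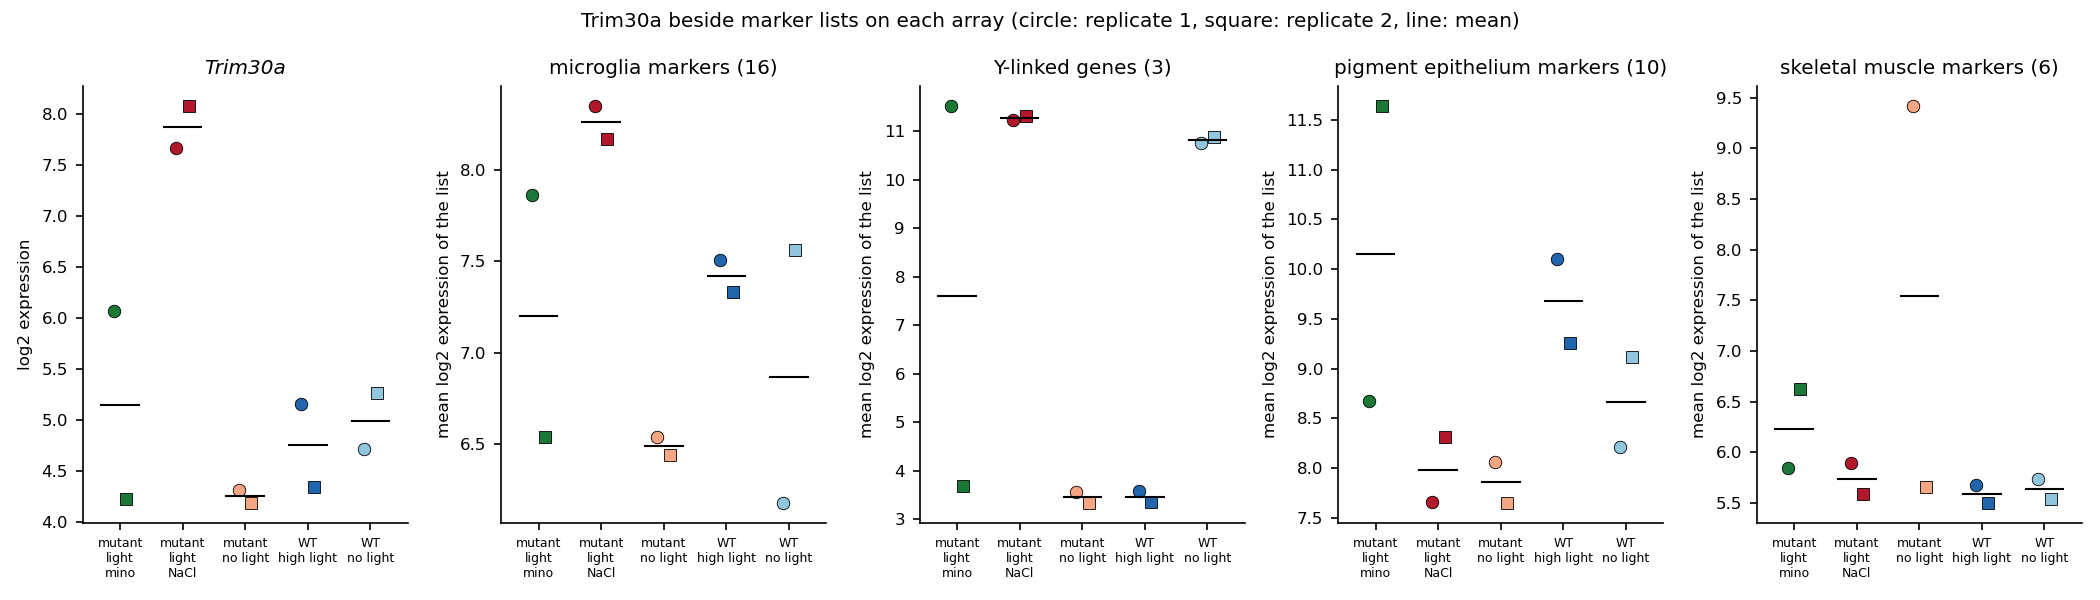
Trim30a and the mean log2 expression of 4 marker lists (vertical axes, number of genes in brackets) on each array, by group along the horizontal axis, with circles for replicate 1, squares for replicate 2 and lines for means. Trim30a and the microglial markers are both highest on the NaCl arrays; the Y-linked genes are high on 5 of 10 arrays, and single arrays stand out for pigment epithelium (11.64) and skeletal muscle (9.42).

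The same question was asked in wild-type retinas, where high light was set against no light. None of the 7 TRIM genes was called, against 26% of all genes called in either direction. At an unadjusted p under 0.05, 1 of the 7 was higher and 1 lower, against 39.7% of all genes. In 1 of the 7 both exposed arrays lay above both unexposed arrays, and in 2 both lay below. Over all genes this was so for 31.2% and 31.8%. The median over the 7 was -0.24, against 0.02 for all genes.

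Trim30a measured 5.16 and 4.35 with high light and 4.72 and 5.27 without light in wild types, a log2 fold change of -0.24 (SE 0.48, 95% CI -1.29 to 0.81). These arrays overlapped. Trim21 measured 4.12 and 4.39 with high light and 4.56 and 5.46 without light, a log2 fold change of -0.76 (SE 0.37, limma adjusted p = 0.154). Its exposed arrays both lay below its unexposed ones. Trim25 measured 6.98 and 8.31 with high light and 8.42 and 8.03 without light (log2 fold change -0.58, SE 0.39, adjusted p = 0.285), so its exposed arrays differed more from each other than the group means did. Without high-light array 2 the log2 fold change of Trim25 was -1.25 (adjusted p = 0.0259), and without high-light array 1 it was 0.09 (adjusted p = 0.898). Lens markers, 4 of 10 called lower, and the Y-linked genes, 3 of 3 called lower, moved in this comparison. The part of the lens markers in the TRIM values was not tested. For the Y-linked genes a covariate fit was run, whose values are not given here for this comparison.

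Trim30d and Trim26 had similar changes in both genotypes. In wild types Trim30d measured 5.80 and 6.22 with high light and 4.09 and 5.53 without light, a log2 fold change of 1.20 (SE 0.42, 95% CI 0.28 to 2.12, limma adjusted p = 0.0546), and all exposed arrays lay above the unexposed ones. The value turned on the unexposed arrays: without array 2 the log2 fold change was 1.92 (adjusted p = 0.0135), and without array 1 it was 0.48 (adjusted p = 0.392). Trim26 measured 6.68 and 6.77 with high light and 7.28 and 7.62 without light (log2 fold change -0.73, SE 0.25, limma adjusted p = 0.0536), again without overlap. Both fell just short of the threshold. For Trim14 and Trim56 the log2 fold changes were 0.46 and 0.52, with adjusted p of 0.270 and 0.278. Without high-light array 2, Trim56 had a log2 fold change of 1.05 (adjusted p = 0.0403), and without high-light array 1 of -0.02 (adjusted p = 0.984).

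The difference between the light effects of the 2 genotypes was tested as an interaction, with the reservation that the light doses differed. No TRIM gene was called, and 0% of all genes were. At an unadjusted p under 0.05 the difference passed for 3 of the 7 and for 11.1% of all genes. For Trim30a it was 3.86 log2 units (SE 0.68, 95% CI 2.38 to 5.35, limma adjusted p = 0.125), and it ranked 18 among all genes by p. For Trim21 it was 2.68 (SE 0.53, 95% CI 1.53 to 3.83, adjusted p = 0.151), and for Trim25 2.64 (SE 0.55, 95% CI 1.44 to 3.83, adjusted p = 0.158). In a limma fit of only the 4 groups of this comparison, Trim30a had an adjusted p of 0.00244 and Trim21 of 0.0151. How many of all genes that fit called is not given here. The Y-linked genes had a median interaction of 16.32, and with their mean as a covariate the interaction was 0.22 for Trim30a and 0.27 for Trim21 (adjusted p = 0.981 and 0.978).

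For the neighbour Trim30d the interaction was 0.13, with a 95% CI from -1.17 to 1.42, and for Trim26 it was -0.19 (adjusted p = 0.892). The interval for Trim30d leaves room for a difference of about the size of its own light effect. Trim14 and Trim56 had interactions of 0.21 and -0.24.

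**Figure D3:**
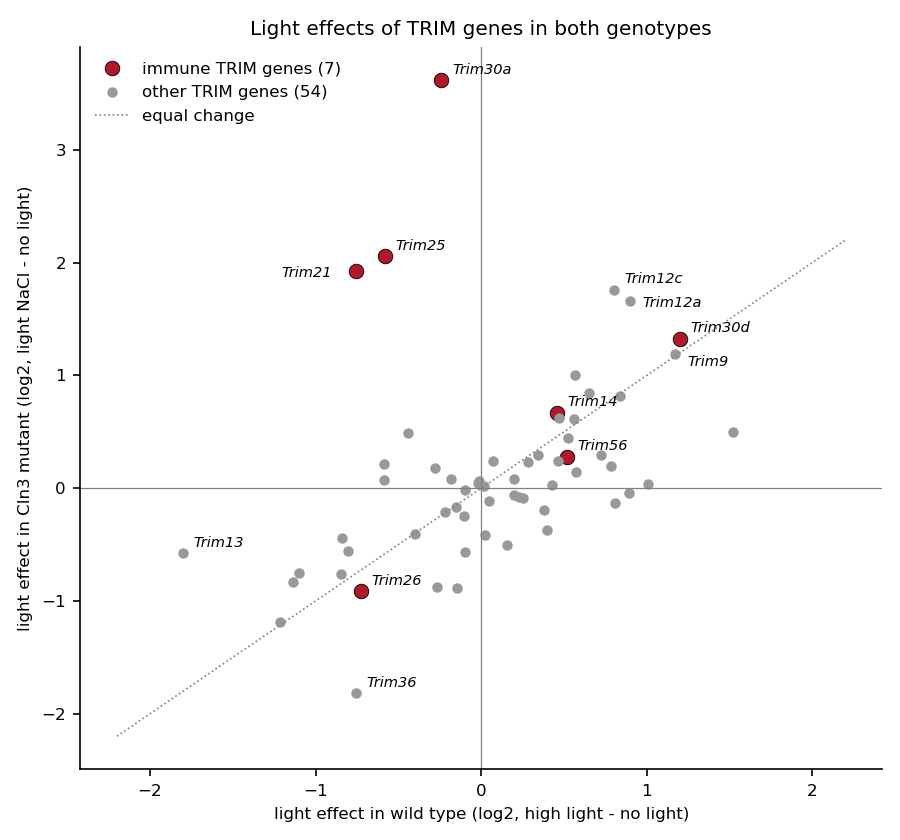
Light effect in wild type (horizontal axis, log2 fold change of high light over no light) against light effect in CLN3-deficient retinas (vertical axis, log2 fold change of light with NaCl over no light) for 7 immune and 54 other TRIM genes. Points are genes and the dotted line marks equal change; Trim30a, Trim21 and Trim25 lie far above it, and Trim30d, Trim14, Trim56 and Trim26 lie near it.

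Light-exposed CLN3-deficient retinas with NaCl were then set against wild-type retinas after high light, which again differ in dose. Trim30a, Trim25 and Trim21 were called higher and the other 4 were not called, against 0.8% of all genes called in either direction. At an unadjusted p under 0.05 the same 3 of 7 passed, against 15.3% of all genes. Trim30a measured 7.67 and 8.08 in CLN3-deficient retinas and 5.16 and 4.35 in wild-type retinas, a log2 fold change of 3.12 (SE 0.48, limma adjusted p = 0.0228), or 8.69-fold. Trim25 differed by 2.64 (SE 0.39, adjusted p = 0.0200), or 6.23-fold, and Trim21 by 2.52 (SE 0.37, adjusted p = 0.0201), or 5.74-fold. In these 3 genes both CLN3-deficient arrays lay above both wild-type arrays, which was so for 20.7% of all genes. In Trim26 both lay below, as in 24.1% of all genes. The difference for Trim30d was 0.19, with a 95% CI from -0.73 to 1.10. Each of these 3 calls was lost in at least 1 fit with a single array left out, which leaves 1 array in its group. The log2 fold changes then lay between 2.715 and 3.525 for Trim30a, 1.975 and 3.305 for Trim25, and 2.385 and 2.655 for Trim21. Y-linked genes averaged 11.27 in CLN3-deficient and 3.47 in wild-type retinas here. Microglial markers averaged 8.26 in CLN3-deficient and 7.42 in wild-type retinas, and pigment epithelium markers 7.98 in CLN3-deficient and 9.68 in wild-type retinas. The part of the microglial and pigment epithelium markers in these values was not tested. With the Y-linked covariate no TRIM gene was called, and Trim30a differed by 1.25 (adjusted p = 0.500). Without wild-type array 1 the adjusted p of Trim30a was 0.0747, without NaCl array 1 it was 0.152 and without NaCl array 2 it was 0.197.

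Without light no TRIM gene was called between the genotypes. Over all genes 0.0461% were called, and 4.35% had an unadjusted p under 0.05, which none of the 7 had. Trim30a measured 4.32 and 4.19 in CLN3-deficient retinas and 4.72 and 5.27 in wild-type retinas, a log2 fold change of -0.74 with a 95% CI from -1.79 to 0.31. Trim21 differed by -0.16, and the other 5 genes by at most 0.15 log2 units in size.

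Minocycline was set against NaCl in light-exposed CLN3-deficient retinas. All 7 TRIM genes had lower means with minocycline, but none was called, against 0.0154% of all genes. At an unadjusted p under 0.05, 4 of the 7 were lower, against 6.55% of all genes in either direction. In 6 of the 7 both minocycline arrays lay below both NaCl arrays, which was so for 17.4% of all genes. The median over the 7 was -0.97, against 0.00 for all genes. Trim30a and Trim21 passed the methods' cut-off, which 0.508% of all genes did.

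Trim30a measured 6.07 and 4.23 with minocycline and 7.67 and 8.08 with NaCl. The log2 fold change was -2.73 (SE 0.48, 95% CI -3.78 to -1.68), a ratio of 0.151, with a limma adjusted p of 0.0967. Array 2 of the minocycline group was at the level of the unexposed mutants, at 4.32 and 4.19, while array 1 lay between them and the NaCl arrays. Without minocycline array 1 the log2 fold change was -3.65, and without array 2 it was -1.81. The fits without a NaCl array lay between these values.

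Trim21 measured 5.13 and 3.89 with minocycline and 6.73 and 6.82 with NaCl, a log2 fold change of -2.27 (SE 0.37, 95% CI -3.08 to -1.45, limma adjusted p = 0.0803) and a ratio of 0.208. Both minocycline arrays lay well below the NaCl arrays. With eBayes set to trend and robust its adjusted p was 0.0387. Without minocycline array 1 the log2 fold change was -2.89 (adjusted p = 0.0012), without minocycline array 2 it was -1.65 (adjusted p = 0.264), and without NaCl array 1 or 2 the adjusted p was 0.415 or 0.547. Trim25 measured 9.58 and 9.05 with minocycline and 9.96 and 10.61 with NaCl (log2 fold change -0.97, SE 0.39, adjusted p = 0.716). Trim30d measured 4.85 and 5.52 with minocycline and 6.32 and 6.07 with NaCl (log2 fold change -1.01, SE 0.42, adjusted p = 0.740). Neither pair overlapped. Trim56, Trim14 and Trim26 differed by -0.59, -0.31 and -0.22, each with an adjusted p of 0.858 or more, and Trim14 was the one whose arrays overlapped.

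The 2 minocycline arrays differed in tissue content and in the Y-linked genes. Microglial markers averaged 7.86 and 6.54 on minocycline arrays 1 and 2, against 8.35 and 8.17 with NaCl. Pigment epithelium markers averaged 8.67 and 11.64 with minocycline, against 7.66 and 8.31 with NaCl, and the Y-linked genes 11.52 and 3.69 with minocycline, against 11.23 and 11.32 with NaCl. The part of the tissue markers in the TRIM values was not tested. A fit with the Y-linked covariate rests on the 2 minocycline arrays, so it cannot separate the Y-linked genes from the tissue markers. On minocycline array 1, which was high in the Y-linked genes like both NaCl arrays, Trim30a was 6.07 and Trim21 5.13, each lower than on both NaCl arrays.

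Exposure with minocycline was also set against no light in the CLN3-deficient mice, a comparison that shares the unexposed arrays with the light effect above. Trim26 was called lower and no other TRIM gene was called, against 10.5% of all genes. At an unadjusted p under 0.05, 1 of the 7 was higher and 1 lower, against 26.2% of all genes. Trim26 measured 6.33 and 6.23 with light and minocycline and 7.78 and 7.03 without light, a log2 fold change of -1.13 (SE 0.25, 95% CI -1.68 to -0.57, limma adjusted p = 0.0191). Its levels in both light-exposed groups lay below both unexposed arrays. Without unexposed array 1 the log2 fold change was -0.75 with an adjusted p of 0.176, without minocycline array 1 or 2 the adjusted p was 0.0634 or 0.0677, and in a fit of the 2 groups alone it was 0.0516. Trim25 had a log2 fold change of 1.09 (adjusted p = 0.0976), Trim30a of 0.90 (SE 0.48, adjusted p = 0.267) and Trim21 of -0.34 (adjusted p = 0.620), none of which passed. The value of Trim30a depended on the minocycline array: it was 1.82 without array 2 (adjusted p = 0.0205) and -0.03 without array 1 (adjusted p = 0.979).

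**Figure D4:**
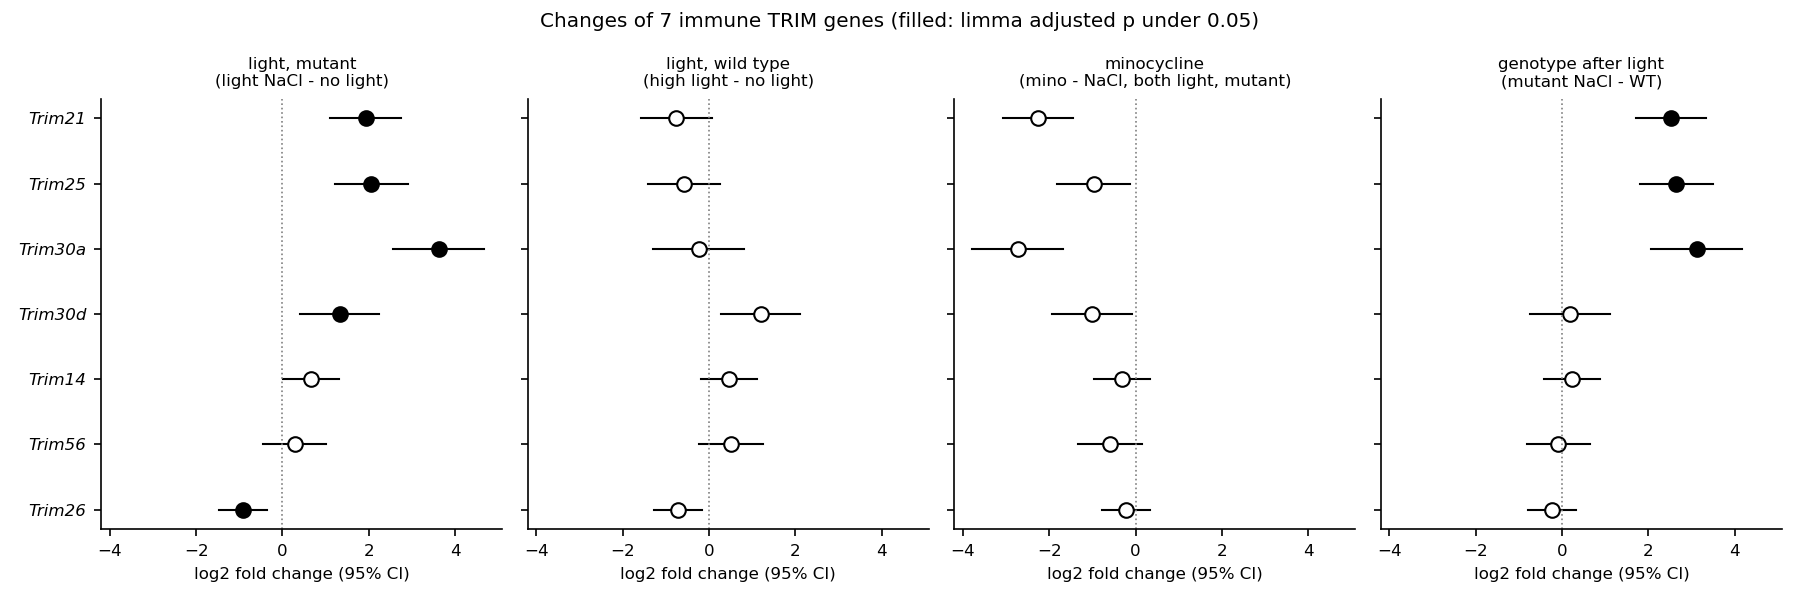
Log2 fold changes with 95% confidence intervals (horizontal axes) of the 7 TRIM genes (vertical axis) in 4 comparisons, one a panel. Filled points had a limma adjusted p under 0.05; 5 genes are filled for light in CLN3-deficient retinas, 0 for light in wild type, 0 for minocycline, and 3 between genotypes after light.

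The order of group means differed between the genes. For Trim30a it ran from NaCl (7.88) over minocycline (5.15), unexposed wild type (4.995) and high-light wild type (4.76) to unexposed mutants (4.26), and for Trim21 from NaCl (6.78) over unexposed wild type (5.01), unexposed mutants (4.85) and minocycline (4.51) to high-light wild type (4.26). In both, the NaCl group stood above all other arrays, and neighbouring groups below it overlapped, except that high-light wild type lay just above the unexposed mutants for Trim30a. Trim25 ran from NaCl (10.29) over minocycline (9.32), unexposed mutants (8.23) and unexposed wild type (8.23) to high-light wild type (7.65), so that both light-exposed mutant groups lay above all other arrays. Trim30d was highest in both light groups without minocycline, at 6.20 with NaCl and 6.01 in high-light wild type. Trim26 was lowest with minocycline (6.28), followed by NaCl (6.50), high-light wild type (6.73), unexposed mutants (7.41) and unexposed wild type (7.45).

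Across the 10 arrays Trim21 and Trim30a ran most alike, with a Pearson's r of 0.90, as a description of arrays that share their groups. Trim25 correlated at 0.75 with Trim30a and at 0.73 with Trim21, and Trim14 at 0.73 with Trim30a. Trim30a and its neighbour Trim30d correlated at 0.46. Trim26 had negative coefficients with all the others, between -0.53 and -0.09.

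Likeness was sought among all other genes except predicted ones. The patterns most like Trim30a were those of Phf11d (r = 0.976), H2-T-ps (r = 0.973) and Igtp (r = 0.972), a guanosine triphosphatase of the interferon-inducible family. Those most like Trim21 were Cmpk2 (r = 0.957), Ifit1bl1 (r = 0.957) and Ifit2 (r = 0.956), the last an interferon-induced RNA-binding protein. For Trim14 they were Ccl2, a chemokine that draws monocytes (r = 0.951), Rpl7a (r = 0.943) and the leukocyte membrane protein Cd53 (r = 0.943). For Trim30d they were Cyba, a subunit of the phagocyte oxidase (r = 0.943), Zfp366 (r = 0.937) and Car13 (r = 0.925). Trim25 was most like Ctnnd1 (r = 0.941), H2ax (r = 0.936) and Glt8d1 (r = 0.93), Trim26 most like Cmss1 (r = 0.975), Wdr1 (r = 0.973) and Tram1l1 (r = 0.972), and Trim56 most like Slc26a9 (r = 0.96), Slco1b2 (r = 0.922) and Slc22a20 (r = 0.917). The coefficients are the highest over all genes, on 10 arrays that fall into groups, and carry no test.

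Of the 54 other TRIM genes, light-exposed CLN3-deficient retinas had 5 higher and 6 lower, with a median log2 fold change of 0.02, and light-exposed wild types had 10 higher and 7 lower, with a median of 0.11. Over all genes 6.57% were called higher and 11% lower in the mutant comparison, and 26% in either direction in the wild-type one, so that these shares of the 54 lay near the background. With minocycline none was called, while 1 was higher and 3 lower at an unadjusted p under 0.05. The smallest p in CLN3-deficient retinas belonged to Trim12a (log2 fold change 1.66, adjusted p = 0.00142), Trim36 (-1.82), Trim9 (1.19) and Trim32 (-1.19). Those in wild types belonged to Trim13 (-1.80), Trim9 (1.17), Trim37 (-1.14) and Trim67 (1.52, adjusted p = 0.00959). Trim9, a neuronal TRIM protein, and Trim32 had nearly the same change in both genotypes, at -1.22 for Trim32 in wild types.

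Other TRIM genes of chromosome 7 were taken as a list of 10, of which 7 were measured. The list does not hold every TRIM gene of that chromosome, and leaves out Trim30e-ps1 for example. Light-exposed CLN3-deficient retinas had 3 higher and 0 lower, and light-exposed wild types likewise 3 and 0. Trim12a, a relative of the antiviral factor TRIM5, measured 8.95 and 8.71 with light and NaCl and 7.29 and 7.05 without light, and Trim12c rose by 1.76 (adjusted p = 0.0159) and Trim68 by 0.82 (adjusted p = 0.0230). In wild types the changes were 0.90 for Trim12a (adjusted p = 0.00960), 0.80 for Trim12c (adjusted p = 0.179) and 0.84 for Trim68 (adjusted p = 0.0160). The third gene called in wild types was Trim3, at 0.89 (adjusted p = 0.0170), which had -0.04 in CLN3-deficient retinas. Trim30b, between Trim12c and Trim30a, had log2 fold changes of 0.62 in CLN3-deficient retinas and 0.47 in wild types, neither called in CLN3-deficient retinas nor in wild types, and its difference from Trim30a was not tested. With minocycline Trim12a was lower by a log2 fold change of -1.37 (adjusted p = 0.0679).

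The pathways on which these ligases act were followed in 4 lists, to be read beside the 6.57% of all genes called higher and 11% called lower with light in CLN3-deficient retinas, and the 26% called in wild types. Of 23 genes for RNA and DNA sensing, 21 were measured, and with light 7 rose and 3 fell in CLN3-deficient retinas, against 2 higher and 3 lower in wild types. Irf7, the transcription factor that amplifies interferon production, measured 13.82 and 13.96 with light and NaCl and 6.32 and 6.51 without light, a log2 fold change of 7.48 (adjusted p = 0.000661). The RNA sensors rose with it, Dhx58 by 3.15 (adjusted p = 0.000845), Ifih1 by 2.67 (adjusted p = 0.00231) and Ddx58, which encodes the Trim25 substrate RIG-I, by 3.17 (adjusted p = 0.00801). In wild types the log2 fold changes were 1.96 for Irf7 (adjusted p = 0.0371), 1.17 for Dhx58 (adjusted p = 0.0250), 0.32 for Ifih1 and 1.53 for Ddx58.

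Of 16 genes of interferon signalling, 15 were measured, and with light 6 rose and 1 fell in CLN3-deficient retinas, against 3 and 2 in wild types. Those with the smallest p were Usp18, which removes the ubiquitin-like modifier ISG15 (6.26, adjusted p = 0.00175), Stat2 (3.12, adjusted p = 0.00176), Irf9 (3.92, adjusted p = 0.00202) and the kinase Jak1 (-1.35, adjusted p = 0.00229). Among 10 interferon genes themselves, 1 was higher in CLN3-deficient retinas, Ifna2 at 0.85 (adjusted p = 0.0449), against 3 in wild types. Ifnb1, the gene of interferon beta, had a log2 fold change of -0.04.

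The list of ubiquitin activating and conjugating enzymes held 13 genes, of which 10 were measured. With light 2 rose and 1 fell in CLN3-deficient retinas, against 1 and 2 in wild types. Ube2l6, the conjugating enzyme for ISG15, rose by 5.30 (adjusted p = 0.00353) and Uba7, its activating enzyme, by 1.06 (adjusted p = 0.0143). Ube2w, which attaches the first ubiquitin for some TRIM proteins, fell by 1.21 on the log2 scale, and Ube2v1, a partner in building ubiquitin chains, had a log2 fold change of 0.66 (adjusted p = 0.0924). With minocycline no gene of these 4 lists was called. Irf7 measured 10.61 and 8.26 with minocycline and 13.82 and 13.96 with NaCl (log2 fold change -4.46, adjusted p = 0.0654), and Ube2l6 9.92 and 6.47 with minocycline and 11.74 and 11.44 with NaCl (log2 fold change -3.40, adjusted p = 0.391). As for Trim30a and Trim21, minocycline array 2 was the lower one.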

How the data were processed

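Total RNA from retinas of 10 mice was hybridised to Affymetrix arrays, named Clariom S in the series text and another Affymetrix mouse array in the study's methods; the cluster identifiers are of the Clariom form. The authors ran Affymetrix Expression Console on the scans, and the deposited values are log2 levels, 1 for each transcript cluster; its version and algorithm and the build are not given in the sources used, so summarisation and background correction may shape dim values. Of 22206 clusters, 19572 carried 1 symbol and 2634 were not listed in the probe table. For 55 genes with several clusters the one with the highest mean was used, leaving 19505 genes with no filter on low values.

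Groups came from the labels. limma 3.58.1 in R 4.3.3 was fitted with 5 group means sharing 1 spread (5 residual degrees of freedom), with Benjamini-Hochberg adjustment over all genes; code was tested on simulated data. With 2 animals a group, exact permutation of a single gene cannot go below p = 0.333, and the median standard error of a 2-group difference was 0.24. Animals are separate by the series text; whether arrays shared a day is not stated.

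The TRIM genes and all gene lists were chosen with earlier results of these data known. All members were named. Values of other TRIM genes were given when on the chromosome 7 list or among the 4 smallest p in a light comparison. Pathway genes were named when among the 4 smallest p in CLN3-deficient mice, and Ifnb1 was named outside this rule. Likeness took the 3 highest correlations without predicted genes. For marker lists only levels and counts of calls are given, and no marker gene is named. Lists of rods, cones, bipolar, ganglion and endothelial cells, Müller glia, lens and red blood cells served as a check of tissue: for light in CLN3-deficient mice 0, 0, 2, 0, 1, 0, 1 and 0 of their genes were called higher and 3, 2, 0, 3, 0, 1, 0 and 0 lower.

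Alternatives were median centring, quantile normalization, leaving out the dimmest 30% of genes, eBayes with trend and robust, the compared groups only, the methods' t-test, the methods' cut-off (a change of 2 or more log2 units in size, unadjusted p under 0.05), every cluster, a Y-linked covariate of 3 genes and leaving out each array.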

Additional observations from a re-analysis of the deposited data

How the results depend on the processing

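Light in CLN3-deficient retinas had 5 called TRIM genes, 4 higher and 1 lower. The methods' t-test after adjustment and the Y-linked covariate each called 0. Over all 19505 genes they called 8 and 0, so these counts say little about the TRIM genes in particular. The methods' cut-off called 2, Trim25 and Trim30a, against 1.06% of all genes; it asks for a larger change. With single arrays left out, which leaves 1 array in a group, fewer were called, and calls over all genes fell too. The log2 fold change then lay between 3.415 and 3.825 for Trim30a, 0.965 and 1.685 for Trim30d, and -1.285 and -0.535 for Trim26. Light in wild type had 0, with 1 after median centring (Trim30d) and 2 without the dim genes (Trim30d and Trim26). Over all genes these settings called 5074 of 19505 and 4712 of 13652. With single arrays left out the log2 fold change of Trim30d lay between 0.48 and 1.92. Genotype by light had 0, with 2 in the groups compared only (Trim21 and Trim30a) and 3 at the methods' cut-off. The share of all genes called in these settings is not given here. With single arrays left out the interaction of Trim30a lay between 3.455 and 4.265. Minocycline had 0, with 1 under trend and robust (Trim21), 2 at the methods' cut-off (Trim21 and Trim30a, against 0.508% of all genes) and 0 to 2 without single arrays. Light with minocycline had 1, Trim26. The groups compared only also gave 1, but this was Trim25, higher; the methods' t-test, the cut-off and the covariate gave 0, and single arrays left out 0 to 1. Genotype after light had 3, with 0 in the methods' t-test and 0 with the covariate. The share of all genes called in these settings is not given here. Genotype without light had 0 under every alternative. No called TRIM gene changed direction under any of these alternatives. Quantile normalization and every cluster kept all these counts within 1.5 times. Except where the fit had fewer samples or genes or a larger fold was asked, the cause of these differences was not tested. No paired analysis was possible because the labels give no replicate numbers that pair animals. The filter on dim genes left Trim14 and Trim21 untested. The precision is limited by 2 arrays a group, and Trim14, Trim21, Trim30a and Trim30d by dim signal.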
